A study of Mus musculus with 24 samples.

Results

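The genes described here make the building blocks of RNA and DNA. The set holds 36 mouse genes of nucleotide synthesis and one-carbon metabolism among the 21671 genes of the expression table, listed by name for their textbook function. No measured value enters the rule, but the list was drawn up with earlier results of these data known. By role, 6 carry folate or its one-carbon units, 13 make the sugar phosphate PRPP and the purines, 9 make pyrimidines or move phosphate between nucleotides, and 8 make deoxynucleotides and thymidylate. All 36 were present and all passed the filter on low values, with a lowest single-library level of 5.70 RPKM (reads per kilobase of gene, scaled to sequencing depth).

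RNA-seq came from mouse 3T9 fibroblasts, a line that grows without limit in culture. They carried an empty vector (EV) or BP-MycER with the WT, HEA or RA form of Myc. MycER joins Myc to the hormone-binding part of the oestrogen receptor, so that OHT (4-hydroxytamoxifen) switches it on. Cells of each of the 4 kinds were kept in OHT for 4 h or 8 h, and each of the 8 groups holds 3 libraries. OHT is thus common to all groups, EV included. Cells without OHT were not analysed here, so differences from EV before and after OHT cannot be told apart. The labels name no promoter for MycER, do not say whether cells were clones or mixed populations, and do not list the changed residues. As background, HEA is known to change residues that touch the bases of Myc's binding motif, and RA arginines that touch the DNA backbone. The series title names the question of how sequence-specific and non-specific DNA contacts serve regulation by Myc.

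Libraries held 9.82 to 12.8 M reads, recovered from the steps between RPKM values. Esr1, which marks the construct, was at most 0.385 RPKM in any EV library and at least 9.04 in every MycER library. Of 12 fibroblast markers 8 had a mean of at least 1 RPKM, with Col1a1 at 137 and Vim at 144, while Thy1, Dcn, Lum and Fap were below 0.5. None of 8 epithelial markers reached a mean of 1 RPKM. Macrophage markers summed to 9.19 to 17.8 RPKM per library, mostly Cd68 at 10.9, with Ptprc at 0.0689. Endothelial, muscle and adipocyte markers summed to at most 4.50, 9.13 and 6.98 RPKM in any library. Replicate 2 of EV at 4 h and replicate 3 of WT at each time lay farthest from their group means.

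De novo synthesis builds purines on PRPP, and pyrimidines as a ring that PRPP joins later. Purine assembly and thymidylate synthesis both draw one-carbon units from folate, which ties folate enzymes to growth. Ribonucleotide reductase then turns ribonucleotides into DNA precursors. Myc is known for driving many of these genes in proliferating cells, and it binds DNA at the E-box, whose core letters are CACGTG.

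The promoters are shown first because HEA and RA differ in how they touch DNA. RefSeq promoters (GRCm38.p6, 250 bases before to 50 after a gene's start) matched 34 of the 36 genes, all except Pfas and Dhodh. The letters CACGTG, which read the same on both strands, were found for 6 genes, which is 17.6% of the 34 against 11.9% of 9032 tested genes with a promoter. The 6 genes were Atic, Dtymk, Tyms, Paics, Impdh2 and Nme1. Stretches before the start site follow, 5′ to 3′ on the gene's strand, with the motif in capitals. Its first base lay at -7 from the start site in Atic, -148 in Dtymk, -61 in Tyms, -203 in Paics, -110 in Impdh2 and -18 in Nme1.
Atic, chr1:71557056-71557155, plus strand, GRCm38.p6: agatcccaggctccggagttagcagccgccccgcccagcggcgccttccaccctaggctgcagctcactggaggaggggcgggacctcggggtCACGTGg
Dtymk, chr1:93802030-93802129, minus strand, GRCm38.p6: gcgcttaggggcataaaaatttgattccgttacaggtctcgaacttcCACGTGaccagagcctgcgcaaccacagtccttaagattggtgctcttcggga
Tyms, chr5:30073634-30073733, minus strand, GRCm38.p6: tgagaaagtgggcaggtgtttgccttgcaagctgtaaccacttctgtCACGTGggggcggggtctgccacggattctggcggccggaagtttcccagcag
Paics, chr5:76951087-76951116, plus strand, GRCm38.p6: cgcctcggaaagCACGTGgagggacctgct
Impdh2, chr9:108560279-108560378, plus strand, GRCm38.p6: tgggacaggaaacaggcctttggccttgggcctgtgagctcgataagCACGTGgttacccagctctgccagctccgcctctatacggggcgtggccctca
Nme1, chr11:93968273-93968372, minus strand, GRCm38.p6: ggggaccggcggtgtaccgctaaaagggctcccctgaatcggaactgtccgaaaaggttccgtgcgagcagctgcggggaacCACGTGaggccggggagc
Stretches of the 3 genes with the largest difference between WT and HEA at 8 h are also shown. Picked by that result, they had no CACGTG in this window, like 28 of the 34 genes in all. Capitals there mark the related letters CACGCG or their reverse complement CGCGTG, found in 8.82% of the members' genes and 20.4% of tested genes and searched for after the data were seen. A gene with either string was counted once. Slc19a1 has a second RefSeq promoter, not printed, that holds the variant at -143, while the printed one does not.
Slc19a1, chr10:77032589-77032738, plus strand, GRCm38.p6: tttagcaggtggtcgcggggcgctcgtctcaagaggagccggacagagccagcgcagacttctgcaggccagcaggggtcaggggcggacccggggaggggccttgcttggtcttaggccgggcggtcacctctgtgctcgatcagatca
Shmt1, chr11:60811266-60811415, minus strand, GRCm38.p6: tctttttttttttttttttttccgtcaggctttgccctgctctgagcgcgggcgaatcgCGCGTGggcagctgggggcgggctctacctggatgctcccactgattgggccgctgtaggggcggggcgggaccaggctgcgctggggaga
Mthfd1, chr12:76255082-76255231, plus strand, GRCm38.p6: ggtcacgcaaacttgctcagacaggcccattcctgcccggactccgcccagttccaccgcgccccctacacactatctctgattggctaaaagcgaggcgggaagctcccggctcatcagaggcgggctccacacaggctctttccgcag
A match is a string of letters, and the absence of one says nothing about binding elsewhere. Of the 6 genes with CACGTG, 2 were higher in WT than in EV at 8 h (Atic and Impdh2), and 3 were lower in HEA (Atic, Tyms and Nme1). Of the 28 without it, 14 were higher in WT and 14 lower in HEA. Over all tested genes, 20.8% of those with CACGTG and 15.1% of those without were higher in WT, and 36.1% and 27.6% were lower in HEA.

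The set was called higher with WT Myc for 18 to 20 genes, lower with HEA for 18, and rarely called with RA, like all tested genes. Each form was compared with EV at the same time by limma on log2(RPKM + 0.5) over 12268 genes, with 0.05 as the threshold on the adjusted p-value. The 3 comparisons at one time share their EV libraries, so their values stand side by side and are not independent. At 8 h 18 of 36 genes were higher in WT and 1 was lower, beside 15.2% of all tested genes called higher and 20.1% called lower (35.2% in all). At 4 h 20 were higher and 0 lower, beside 11.6% and 14.4% (26.1% in all). In HEA 6 were higher and 18 lower at 8 h, beside 20.2% and 27.5% of all genes (47.7% in all), and 3 were higher and 18 lower at 4 h, beside 17.7% and 25.5% (43.2% in all). In RA 0 were higher and 1 was lower at 8 h, beside 1.49% and 1.29% (2.78% in all), and 0 were higher and 2 lower at 4 h, beside 2.58% and 2.73% (5.31% in all). The median log2 fold change of the set at 8 h was 0.18 in WT, -0.27 in HEA and -0.09 in RA, against -0.025, -0.048 and 0.005 over all tested genes. Among genes called in WT at 4 h the largest values were those of Ppat (0.62 ± 0.10), Shmt1 (0.50 ± 0.087) and Slc19a1 (0.45 ± 0.080). Levels are relative to each library's total, and in bulk RNA fewer cells of a type and less RNA per cell cannot be told apart.

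**Figure D1:**
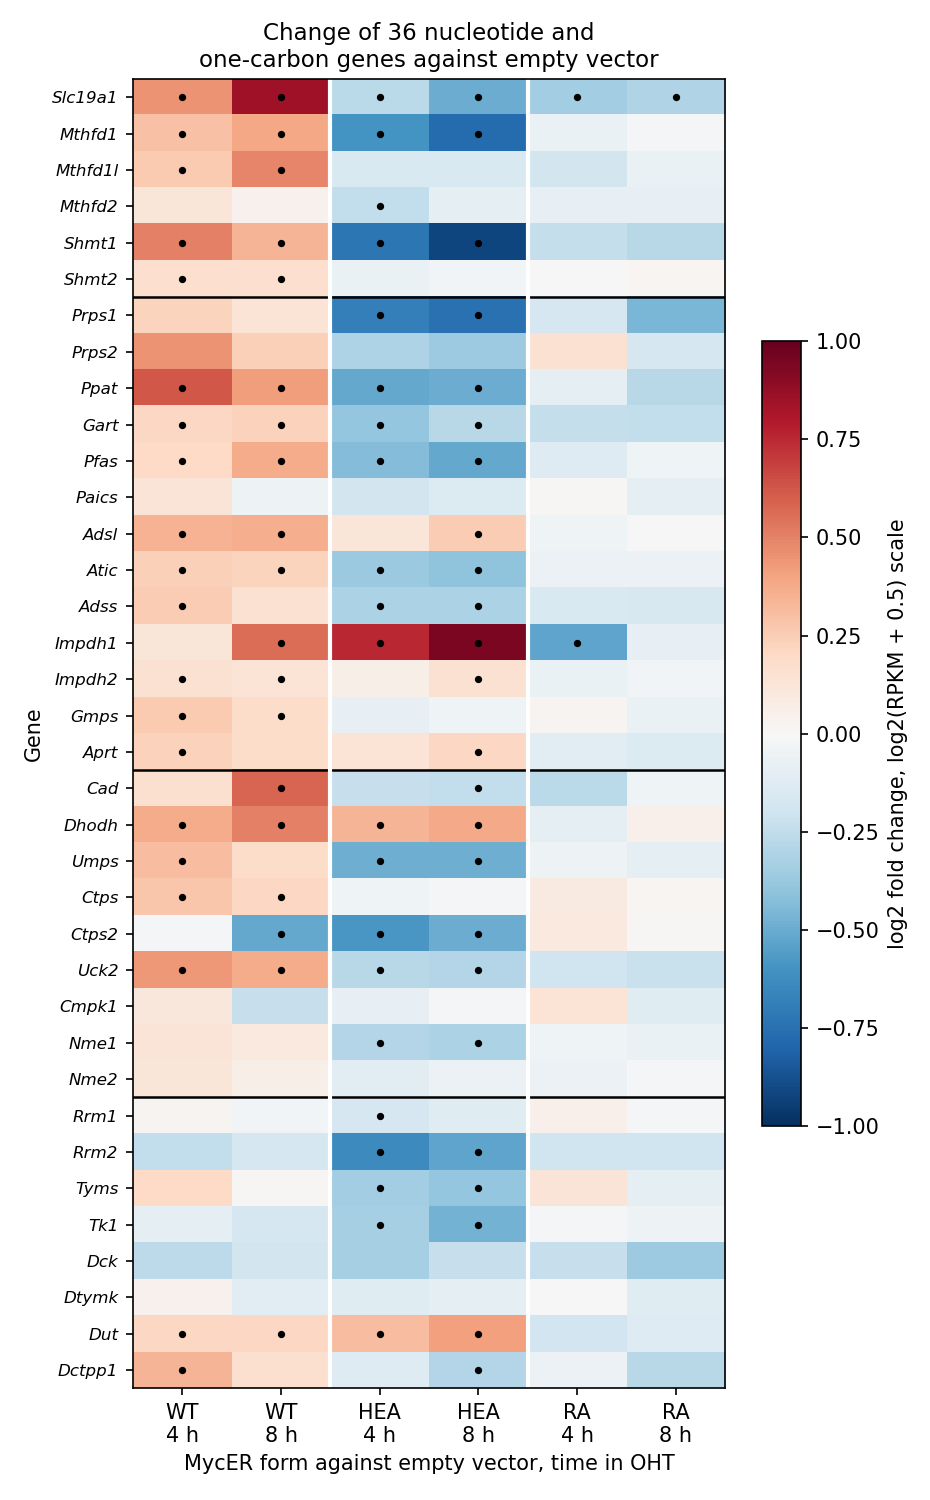
Log2 fold change of each of the 36 genes (rows, split by black lines into folate, purine, pyrimidine and deoxynucleotide genes) against EV for WT, HEA and RA at 4 h and 8 h of OHT (columns), with red higher, blue lower and a dot where the adjusted p-value was below 0.05. The WT columns are mostly red (20 and 18 genes called higher), the HEA columns mostly blue (18 called lower at each time) and the RA columns nearly without dots.

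The count of genes called in WT at 8 h, 19 in both directions, was 15 to 18 when any 1 EV or WT library of that time was left out. The count at 4 h, 20 in all, was 12 without WT at 4 h replicate 3, 6 when only the EV and WT libraries were fitted and 14 without the 3 farthest libraries. These counts include genes called only in that setting. Without the 3 farthest libraries Gart, Adss, Gmps, Aprt, Dhodh, Umps, Dut and Dctpp1 were not called in WT at 4 h (adjusted p = 0.0559 to 0.219). At 4 h the WT split was 17 higher and 2 lower after quantile normalisation, and the HEA split was 6 and 18 after that and 6 and 16 after cyclic loess normalisation. Over all tested genes, median centring turned the 1861 higher and 2463 lower calls of WT at 8 h into 2433 and 1976, and those of HEA at 8 h from 2474 and 3379 into 3053 and 2642. It turned those of WT at 4 h from 1429 and 1767 into 1907 and 1421. Replicates are numbered in the labels without mention of separate cultures, and p-values then measure only the spread between these samples.

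Folate transport and one-carbon enzymes had a median WT log2 fold change of 0.36 at 8 h and a median of -0.32 in HEA. In WT 5 of 6 (83.3%) were higher at each time and 0 lower. Of all tested genes 15.2% were higher in WT at 8 h and 11.6% at 4 h. In HEA 4 (66.7%) were lower at 4 h and 3 (50%) at 8 h, and 0 were higher. The shares of all tested genes lower in HEA were 25.5% and 27.5%. Slc19a1, the reduced folate carrier that brings folate into the cell, had levels of 30.7, 31.2 and 33.6 RPKM in EV at 8 h, 59.4, 54.1 and 59.7 in WT and 23.5, 22.7 and 21.1 in HEA. The 3 groups did not overlap, with WT on top and HEA at the bottom. RA at 8 h was at 23.7, 27.8 and 26.1, also below EV. Its log2 fold change at 8 h was 0.85 ± 0.080 in WT (adjusted p = 1.21e-07), a level 1.8 times that of EV, and -0.50 ± 0.080 in HEA (adjusted p = 3.92e-05). At 4 h its HEA value was -0.27 ± 0.080 (adjusted p = 0.00981, or 0.0722 without HEA at 4 h replicate 3).

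Mthfd1, a cytosolic enzyme with several activities that interconverts folate one-carbon forms, split the groups in the same order. It was at 49.7, 48.2 and 50.5 RPKM in EV at 8 h, 64.8, 62.1 and 67.5 in WT and 25.9, 32.1 and 29.1 in HEA. WT rose above all EV libraries and HEA lay far below them, at 0.39 ± 0.073 and -0.77 ± 0.073 (adjusted p = 0.000371 and 6.35e-08). In RA it was at 49.0 ± 2.5 RPKM (SD, n = 3), a log2 fold change of -0.01 ± 0.073 that did not pass. Shmt1, the cytosolic enzyme that takes a one-carbon unit from serine, was at 36.8, 34.7 and 37.0 RPKM in EV at 8 h, 49.8, 45.0 and 43.2 in WT and 16.6, 20.8 and 19.5 in HEA. Its HEA libraries were the lowest by a wide margin, with a log2 fold change of -0.92 ± 0.087 (adjusted p = 5.89e-08), next to 0.34 ± 0.087 in WT (adjusted p = 0.00464).

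The remaining enzymes act in mitochondria. Mthfd1l, which releases formate in mitochondria, was at 42.9, 40.0 and 37.8 RPKM in EV at 8 h, 55.2, 55.1 and 60.2 in WT and 35.1, 38.2 and 35.1 in HEA. Only its WT value passed, 0.49 ± 0.066 (adjusted p = 8.53e-06), with HEA at -0.15 ± 0.066. Shmt2, the mitochondrial serine enzyme and the second most abundant of the set, was at 111, 102 and 108 RPKM in EV at 8 h, 119, 117 and 125 in WT and 102, 106 and 106 in HEA. The WT libraries stood just above EV, and the log2 fold change was 0.17 ± 0.049 (adjusted p = 0.0117). This call was lost without EV at 8 h replicate 2 (adjusted p = 0.0633) or WT at 8 h replicate 3 (0.056). Mthfd2, the mitochondrial dehydrogenase, did not pass in WT and was lower in HEA at 4 h alone, at 54.1, 48.1 and 57.8 RPKM against 64.8, 62.0 and 63.5 in EV. Its log2 fold change there was -0.25 ± 0.072 (adjusted p = 0.00785, or 0.0633 without HEA at 4 h replicate 2), and its 8 h value -0.10 ± 0.072.

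Purine synthesis was mostly higher in WT. Of 13 genes 8 were higher at 8 h (61.5%) and 9 at 4 h (69.2%), with 0 lower at either time. The shares of all tested genes higher in WT were 15.2% and 11.6%. In HEA the group was divided, with 6 lower (46.2%) and 4 higher (30.8%) at 8 h. Of all tested genes 27.5% were lower and 20.2% higher in HEA at 8 h. Ppat, the amidotransferase that commits PRPP to purines, was at 38.1, 36.4 and 39.9 RPKM in EV at 8 h, 55.4, 53.6 and 45.0 in WT and 24.6, 27.2 and 28.5 in HEA. The 3 groups did not overlap. Its log2 fold changes were 0.42 ± 0.10 in WT and -0.50 ± 0.10 in HEA at 8 h (adjusted p = 0.00306 and 0.000421), and 0.62 ± 0.10 in WT at 4 h. Paics, which makes later steps and overlaps Ppat in RefSeq, did not pass in WT or HEA, with -0.05 ± 0.077 and -0.14 ± 0.077 at 8 h. Whether the counting used strand is not stated, so reads in the shared stretch could belong to either.

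Pfas and Atic act at a middle step and at the last steps of the purine ring. Pfas was at 54.7, 53.9 and 55.1 RPKM in EV at 8 h, 70.2, 69.1 and 73.2 in WT and 37.3, 39.0 and 38.6 in HEA. Atic was at 35.0, 34.6 and 34.5 RPKM in EV at 8 h, 41.2, 40.6 and 39.6 in WT and 25.7, 26.4 and 26.3 in HEA. Both went up in WT and down in HEA with no overlap. Pfas had log2 fold changes of 0.37 ± 0.052 and -0.51 ± 0.052, and Atic of 0.22 ± 0.050 and -0.40 ± 0.050, with adjusted p at most 0.00199. Their RA means, 53.0 ± 2.6 and 33.2 ± 0.34 RPKM, did not differ from EV by the test.

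Gart, an enzyme with several purine activities, was at 48.7, 47.6 and 50.3 RPKM in EV at 8 h, 58.3, 56.6 and 56.8 in WT and 35.6, 43.1 and 41.9 in HEA. It rose in WT (0.23 ± 0.071, adjusted p = 0.0179) and fell in HEA (-0.28 ± 0.071, adjusted p = 0.00283). The WT call was lost without EV at 8 h replicate 2 (adjusted p = 0.0595) or WT at 8 h replicate 1 (0.0564). Prps1, which makes PRPP, was at 42.9, 41.3 and 44.0 RPKM in EV at 8 h, 54.3, 49.8 and 39.0 in WT and 21.9, 28.6 and 25.4 in HEA. It was lower in HEA (-0.75 ± 0.17, adjusted p = 0.0012), while the WT libraries were widely spread and did not pass. Adss, the first enzyme on the branch to AMP, was at 36.8, 38.1 and 37.5 RPKM in EV at 8 h, 44.3, 44.1 and 36.5 in WT and 28.7, 31.5 and 29.4 in HEA. It too was lower in HEA (-0.32 ± 0.081, adjusted p = 0.0028) and did not pass in WT at 8 h.

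The purine genes that were higher in HEA include both IMP dehydrogenases, which open the branch to GMP. Impdh1 was at 23.0, 21.2 and 22.6 RPKM in EV at 8 h, 35.0, 28.8 and 35.9 in WT, 43.9, 44.9 and 41.0 in HEA and 20.1, 20.0 and 22.9 in RA. HEA was the highest group, with a log2 fold change of 0.94 ± 0.13 (adjusted p = 1.02e-05), above 0.56 ± 0.13 in WT (adjusted p = 0.00285). At 4 h it was higher in HEA (0.75 ± 0.13), not called in WT (0.12 ± 0.13) and lower in RA (-0.53 ± 0.13, adjusted p = 0.027). Impdh2, the most abundant gene of the set, was at 119, 115 and 120.4 RPKM in EV at 8 h, 130.3, 127 and 135 in WT and 127, 132 and 135 in HEA. Both sets lay above EV, and the log2 fold changes were small, at 0.14 ± 0.048 and 0.15 ± 0.048 (adjusted p = 0.0227 and 0.012). The WT call was lost without EV replicate 2 (0.0841) or WT replicate 1 (0.0506) or 3 (0.0932) at 8 h or without the 3 farthest libraries (0.0681), and the HEA call without EV replicate 2 (0.0502).

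Adsl, which acts both in the ring and on the AMP branch, was at 49.6, 46.1 and 50.0 RPKM in EV at 8 h, 62.2, 61.1 and 64.5 in WT and 54.4, 59.6 and 59.7 in HEA. It was higher in both, by 0.36 ± 0.075 and 0.25 ± 0.075 on the log2 scale (adjusted p = 0.000752 and 0.00929). Aprt, which salvages adenine, was at 76.0, 69.5 and 75.4 RPKM in EV at 8 h, 85.9, 81.0 and 82.9 in WT and 80.6, 84.5 and 89.8 in HEA. Its HEA value passed (0.21 ± 0.073, adjusted p = 0.0261) and its WT value did not (0.18 ± 0.073). The HEA call was lost without EV at 8 h replicate 2 (adjusted p = 0.109), HEA at 8 h replicate 2 (0.0523) or HEA at 8 h replicate 3 (0.11). Prps2 and Gmps complete the group with WT log2 fold changes of 0.24 ± 0.18 and 0.18 ± 0.068, of which Gmps passed at 8 h (adjusted p = 0.0477) but in 8 of 17 alternatives did not, among them leaving out any EV library or WT replicate 1 or 2 at 8 h (adjusted p = 0.058 to 0.159).

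**Figure D2:**
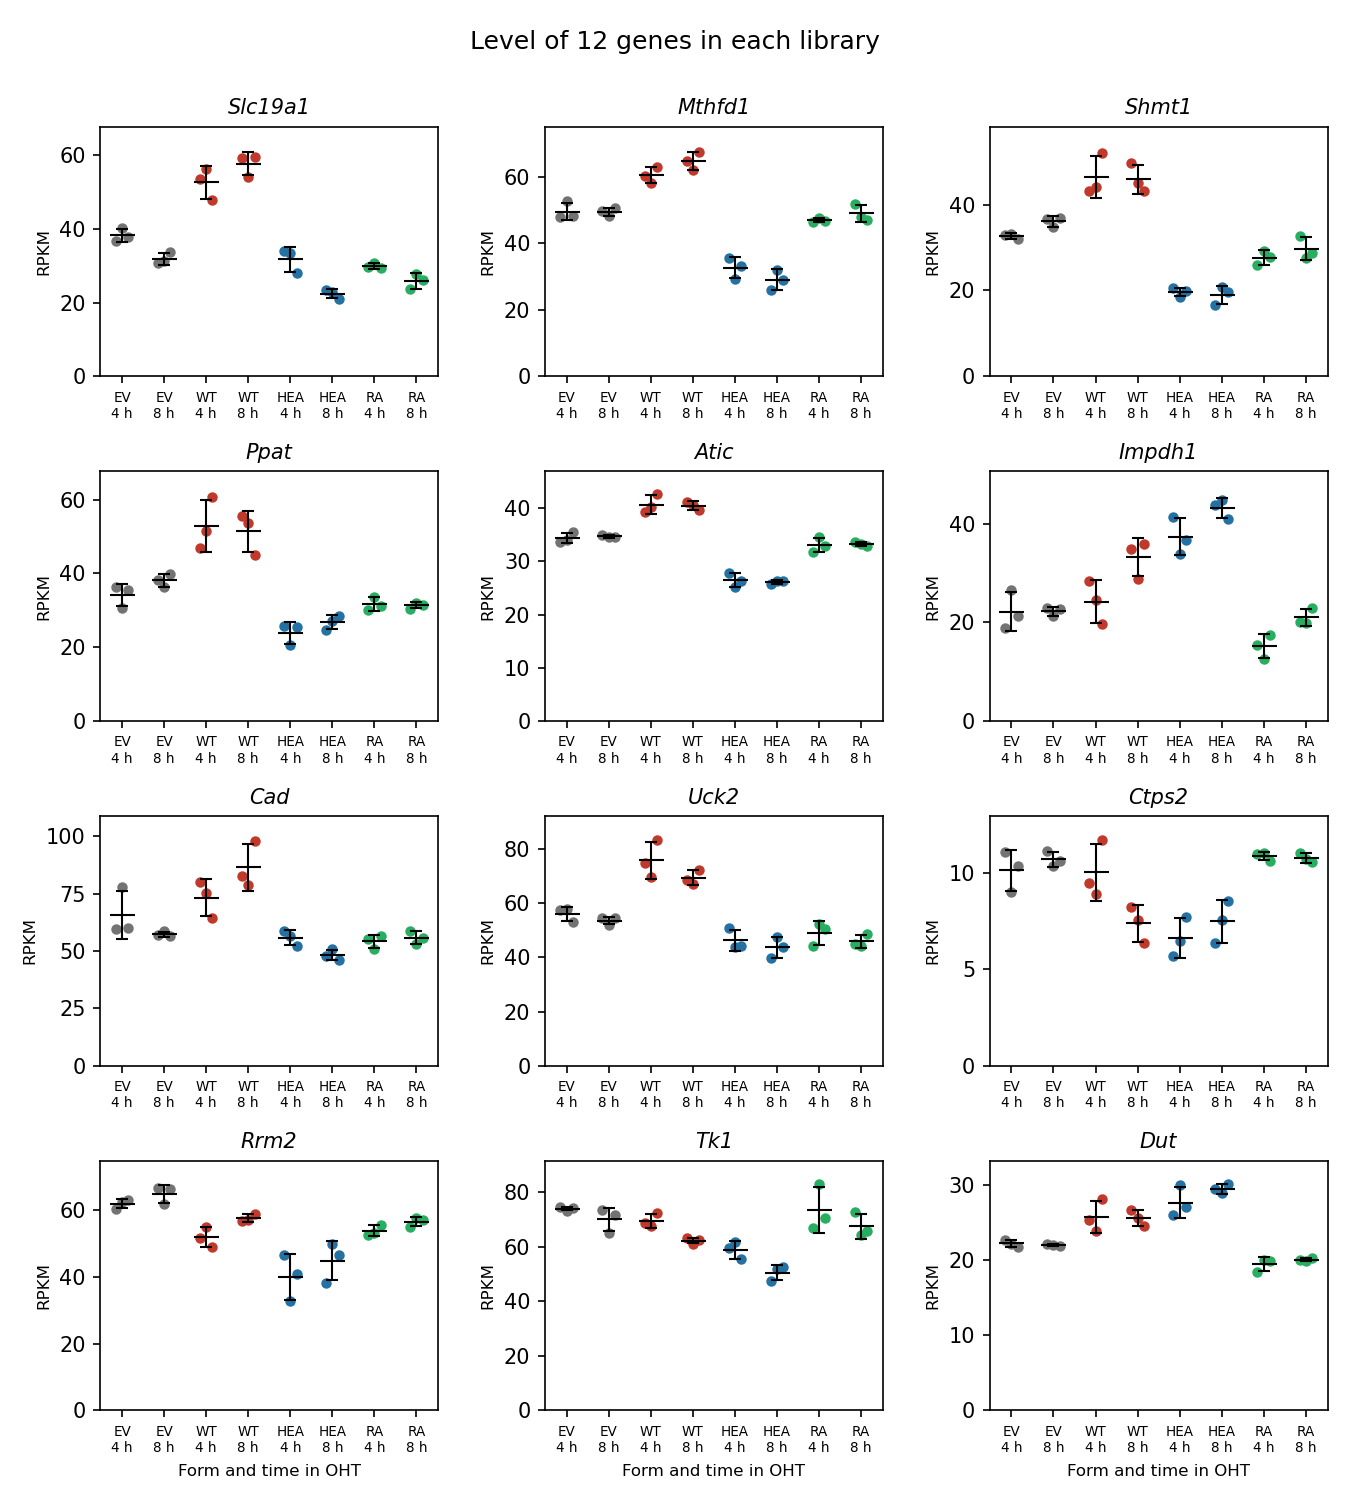
Level of 12 of the genes in RPKM (linear axis from 0) in each library (points) of the 8 groups, with the mean and SD of 3 libraries as bars. WT (red) lies above EV (grey) and HEA (blue) below it for Slc19a1, Mthfd1, Shmt1, Ppat, Atic and Uck2 at 8 h, whereas HEA is the highest group for Impdh1 and Dut.

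Pyrimidine synthesis was split between genes. In WT at 8 h 4 of 9 were higher (44.4%) and 1 was lower (11.1%), beside 15.2% and 20.1% of all tested genes. In HEA 1 was higher (11.1%) and 5 were lower (55.6%), beside 20.2% and 27.5%. Cad, which carries the opening enzymes of the pathway on a single protein, was at 57.0, 58.6 and 56.5 RPKM in EV at 8 h, 82.5, 79.0 and 98.1 in WT and 47.7, 50.6 and 46.2 in HEA. WT was clearly above EV (0.58 ± 0.096, adjusted p = 8.84e-05). The lower HEA value (-0.25 ± 0.096, adjusted p = 0.0371) was lost in 10 of 17 alternatives, among them median centring (0.194), leaving out any EV library, or HEA replicate 1 or 3 at 8 h (0.0667 to 0.108). At 4 h Cad did not pass in WT, where EV at 4 h held 59.7, 77.8 and 59.9 and WT 80.1, 75.3 and 64.4 RPKM.

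Dhodh, the mitochondrial enzyme that oxidises the ring, was among the least abundant members. It was at 10.7, 10.2 and 9.83 RPKM in EV at 8 h, 15.6, 13.5 and 14.9 in WT and 13.0, 13.6 and 13.9 in HEA. Both MycER groups stood above EV, and the log2 fold changes were 0.50 ± 0.088 and 0.38 ± 0.088 (adjusted p = 0.000178 and 0.00129). Umps, which finishes UMP, was at 64.3, 60.8 and 63.0 RPKM in EV at 8 h, 74.8, 73.2 and 65.0 in WT and 41.7, 44.9 and 46.8 in HEA. It was lower in HEA (-0.49 ± 0.083, adjusted p = 6.67e-05), and its WT value of 0.18 ± 0.083 did not pass at 8 h. Uck2, a salvage kinase for uridine and cytidine, was at 54.4, 52.0 and 54.4 RPKM in EV at 8 h, 68.7, 67.0 and 72.4 in WT and 39.8, 47.4 and 43.9 in HEA. Its groups did not overlap, with 0.37 ± 0.078 in WT and -0.29 ± 0.078 in HEA (adjusted p = 0.00103 and 0.00423).

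The CTP synthases Ctps and Ctps2 differed in their WT values. Ctps was at 64.5, 64.7 and 66.5 RPKM in EV at 8 h, 75.9, 77.0 and 74.4 in WT and 63.5, 65.3 and 64.6 in HEA. Ctps2, the scarcest gene of the set, was at 11.2, 10.4 and 10.7 RPKM in EV at 8 h, 8.25, 7.56 and 6.37 in WT and 6.35, 7.59 and 8.57 in HEA. Ctps rose in WT (0.21 ± 0.050, adjusted p = 0.00228) and did not pass in HEA (-0.02 ± 0.050), while Ctps2 was lower in both (-0.51 ± 0.12 and -0.50 ± 0.12, adjusted p = 0.00282 and 0.00251). Ctps2 was the single member called lower in WT at 8 h, and at 4 h its WT value was -0.02 ± 0.12. Nme1, a nucleoside diphosphate kinase, was at 68.6, 65.7 and 71.4 RPKM in EV at 8 h, 71.5, 75.0 and 73.5 in WT and 51.5, 57.2 and 56.4 in HEA, lower in HEA by the test (-0.32 ± 0.065, adjusted p = 0.000526). Its close copy Nme2 (-0.06 ± 0.058 in HEA) and the UMP kinase Cmpk1 (-0.02 ± 0.12) did not pass in either form at 8 h. Nme1 and Nme2 are so alike that reads could be assigned to either, and their values are uncertain to that extent.

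Genes for DNA precursors had a median WT log2 fold change of -0.07 at 8 h and a median of -0.26 in HEA. In WT at 8 h 1 of 8 was higher and 0 were lower, and in HEA 4 were lower and 1 was higher at each time. The WT share of 12.5% at 8 h is near the 15.2% of all tested genes called higher. In HEA at 8 h 50% were lower and 12.5% higher, beside 27.5% and 20.2%. At 4 h 2 of the 8 were higher in WT (25%) and 0 lower, beside 11.6% and 14.4%. These were Dut (0.21 ± 0.065, adjusted p = 0.0227) and Dctpp1 (0.34 ± 0.090, adjusted p = 0.00902). Both calls were lost without WT at 4 h replicate 3 (0.142 and 0.0785). Rrm2, the S-phase subunit of ribonucleotide reductase, was at 66.5, 61.8 and 66.2 RPKM in EV at 8 h, 56.7, 57.1 and 58.8 in WT and 38.3, 49.8 and 46.4 in HEA. All WT and HEA libraries lay below EV, but only HEA passed (-0.53 ± 0.093, adjusted p = 9.51e-05), with WT at -0.17 ± 0.093. Rrm1, its large partner subunit, was at 58.9, 56.2 and 60.1 RPKM in EV at 4 h and 53.3, 48.2 and 54.8 in HEA, a log2 fold change of -0.17 ± 0.058 (adjusted p = 0.025). That call was lost in 7 of 17 alternatives, among them leaving out EV replicate 1 (0.0664) or 3 (0.0919) or HEA replicate 2 (0.155) at 4 h, and at 8 h it was not made.

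Tk1, the salvage kinase for thymidine, was at 73.3, 65.0 and 71.5 RPKM in EV at 8 h, 63.0, 61.0 and 62.3 in WT and 47.2, 51.6 and 52.6 in HEA. It was lower in HEA (-0.47 ± 0.070, adjusted p = 1.87e-05) and not called in WT (-0.17 ± 0.070). Tyms, which makes thymidylate with folate, was at 31.3, 30.0 and 30.6 RPKM in EV at 8 h, 32.7, 33.9 and 26.6 in WT and 22.2, 23.7 and 23.9 in HEA. It had a WT log2 fold change of 0.01 ± 0.089 and was lower in HEA (-0.39 ± 0.089, adjusted p = 0.00118). Dut, which removes dUTP, went the other way, at 22.2, 22.1 and 21.9 RPKM in EV at 8 h, 26.8, 25.7 and 24.6 in WT and 29.5, 28.9 and 30.2 in HEA. It was higher in HEA (0.41 ± 0.065, adjusted p = 2.89e-05) and in WT (0.21 ± 0.065, adjusted p = 0.0143, or 0.065 without WT at 8 h replicate 1).

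Dctpp1, which clears unwanted dCTP forms, was at 56.8, 47.5 and 53.0 RPKM in EV at 8 h, 62.8, 59.5 and 53.3 in WT and 40.1, 42.9 and 44.9 in HEA. It was lower in HEA (-0.29 ± 0.090, adjusted p = 0.0106), a call lost without EV replicate 1 (0.064) or HEA replicate 1 (0.0546) at 8 h. Dck, the deoxycytidine kinase, was at 33.4, 32.2 and 34.3 RPKM in EV at 8 h, 32.3, 30.8 and 25.3 in WT and 25.7, 30.9 and 28.8 in HEA, and it passed in no comparison with EV. Dtymk, the thymidylate kinase, also passed in none, at -0.11 ± 0.084 in WT and -0.10 ± 0.084 in HEA at 8 h. In HEA 21 of 38 DNA replication genes were lower (55.3%) and 3 higher (7.89%) at 8 h, with a median of -0.21. At 4 h 26 were lower (68.4%) and 2 higher (5.26%). Of all tested genes 27.5% were lower and 20.2% higher at 8 h, and 25.5% and 17.7% at 4 h. In WT 3 of the 38 were higher (7.89%) and 1 was lower (2.63%) at 8 h, beside 15.2% and 20.1% of all tested genes. The part of replication genes in the lower DNA precursor genes of HEA was not tested.

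WT and HEA were then compared with each other, which uses no EV library. At 8 h 22 of 36 genes were higher in WT and 2 lower, beside 24.6% and 23.4% of all tested genes (48.0% in all). At 4 h 28 were higher and 1 lower, beside 26.9% and 22.6% (49.5% in all). The largest differences at 8 h were those of Slc19a1 (1.34 ± 0.080, adjusted p = 4.07e-11), Shmt1 (1.26 ± 0.087) and Mthfd1 (1.15 ± 0.073, adjusted p = 1.04e-10). Next came Ppat (0.92 ± 0.10), Prps1 (0.90 ± 0.17), Pfas (0.88 ± 0.052) and Cad (0.83 ± 0.096), each with adjusted p at most 0.00019. Impdh1 and Dut were the 2 genes lower in WT than in HEA, at -0.38 ± 0.13 and -0.20 ± 0.065 (adjusted p = 0.0247 and 0.0148). The Impdh1 call was lost without WT replicate 2 (0.129) or HEA replicate 1 (0.0624) or 2 (0.0717) at 8 h, and that of Dut without WT replicate 3 (0.0603) or HEA replicate 3 (0.0527). Adsl, Impdh2, Aprt and Dhodh, which stood above EV in HEA, did not differ between WT and HEA by the test at 8 h, with values of 0.11 ± 0.075, -0.01 ± 0.048, -0.03 ± 0.073 and 0.11 ± 0.088.

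RA served as a further reference that carries a MycER construct. Against RA at 8 h 24 of 36 genes were higher in WT and 1 lower, beside 17.3% and 24.4% of all genes (41.8% in all). At 4 h 24 were higher and 0 lower, beside 15.0% and 19.9% (34.8% in all). Over all genes at 4 h, median centring turned 1835 higher and 2437 lower calls into 2373 and 1892. Slc19a1 led with 1.15 ± 0.080 at 8 h, followed by Ppat with 0.70 ± 0.10, and Ctps2 was the gene lower in WT (-0.52 ± 0.12). WT against RA and HEA against EV share no library. At 8 h 14 genes were both higher in WT than in RA and lower in HEA than in EV. This was 58.3% of the 24 and 77.8% of the 18, beside 31.2% and 19.7% over all tested genes. At 4 h it was 11 genes, 45.8% and 61.1%, beside 31.5% and 18.5%. Of all 36 members, 50% were lower in HEA than in EV and 66.7% higher in WT than in RA at each time. The overlap shares of the set lie near these, and gene-by-gene opposition of WT and HEA was not tested.

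**Figure D3:**
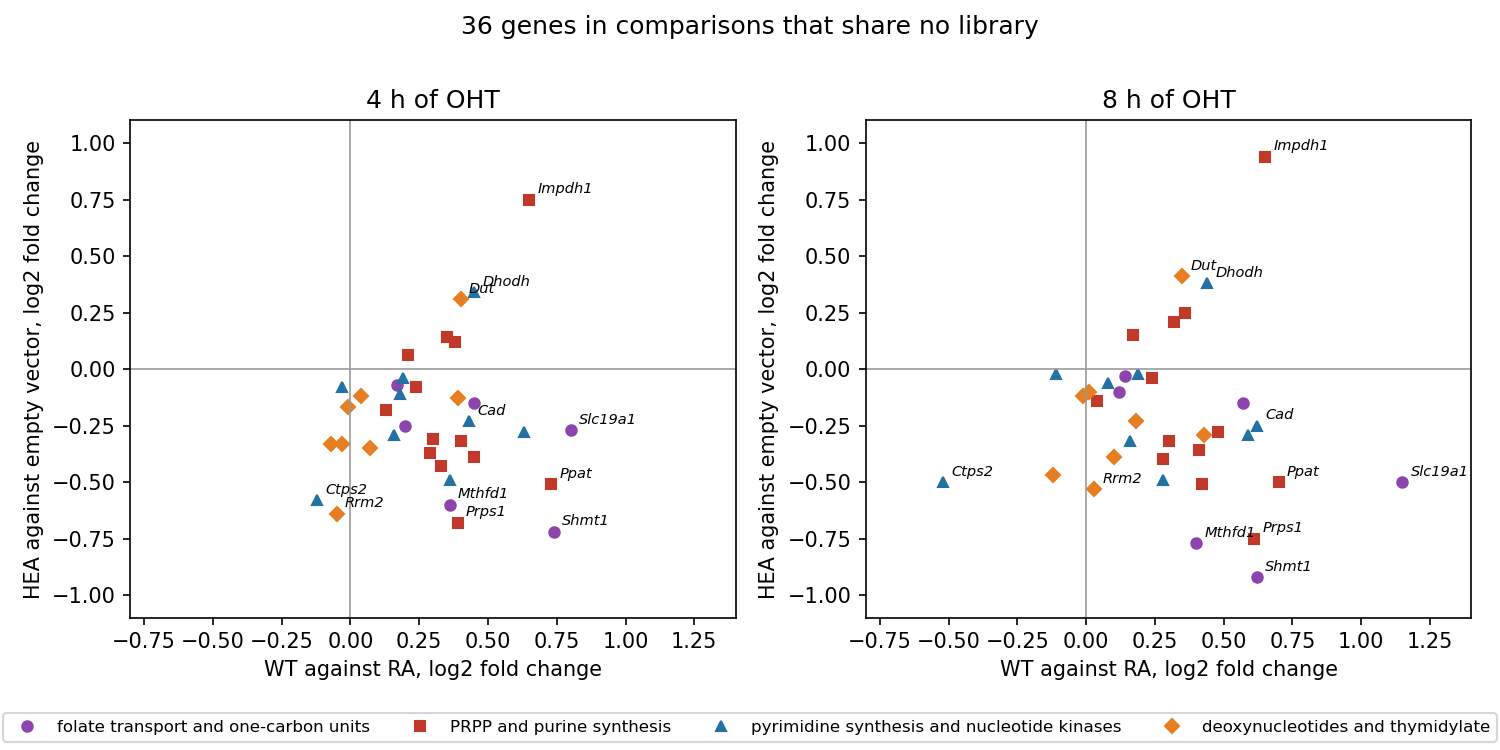
Log2 fold change of WT against RA (x axis) and of HEA against EV (y axis) for the 36 genes at 4 h and 8 h, with symbols for the 4 roles. The lower right panel corner holds most genes, among them the 14 called in both directions at 8 h, Impdh1 is the highest point at both times, and Ctps2 is the leftmost.

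RA itself was called different from EV for 2 of 36 members at 4 h (5.56%) and 1 at 8 h (2.78%). These shares are near the 5.31% and 2.78% of all tested genes. Slc19a1 stood at 29.6, 30.9 and 29.3 RPKM in RA and 36.8, 40.3 and 37.8 in EV at 4 h. It was lower at both times, -0.35 ± 0.080 at 4 h (adjusted p = 0.0151) and -0.30 ± 0.080 at 8 h (adjusted p = 0.0484), and Impdh1 was lower at 4 h, with 15.5, 12.7 and 17.4 RPKM in RA against 18.8, 26.5 and 21.4 in EV. At 4 h the Slc19a1 call was lost without EV replicate 2 (0.088) or RA replicate 1 (0.0597) and without the 3 farthest libraries (0.0516), and at 8 h when any 1 of the 6 libraries was left out (0.055 to 0.269). The Impdh1 call was lost without EV replicate 2 (0.179) or 3 (0.0551) or RA replicate 1 (0.0752) or 2 (0.153) at 4 h, and without the 3 farthest libraries (0.0825). At 8 h the count of called members was 9 when only EV and RA libraries were fitted, 5 without the 3 farthest libraries and 0 in several other settings, all of those calls being lower in RA. The set's highest log2 fold change in RA was 0.15 at 4 h and 0.05 at 8 h. Negative values, mostly not called, were found for 27 of the 36 members at 4 h and 32 at 8 h. The medians of the set were -0.07 and -0.09, beside 0.023 and 0.005 over all tested genes.

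The 2 times in OHT were compared last. In EV 0 of 36 genes differed between 8 h and 4 h by limma, with 4 at an unadjusted p below 0.05 and 0 with voom on recovered reads, beside 0.0245% of all genes called. The WT effect at 8 h minus that at 4 h was called for 0 of 36, with 6 at an unadjusted p below 0.05 and 0 with voom, beside 0.0163% of all genes. Slc19a1 and Cad had WT values of 0.45 ± 0.080 and 0.16 ± 0.096 at 4 h beside 0.85 ± 0.080 and 0.58 ± 0.096 at 8 h, and the differences of 0.40 ± 0.11 and 0.42 ± 0.14 did not pass. Ctps2 had the largest difference downward, -0.49 ± 0.17 (adjusted p = 0.355).

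For a few members mean reads are given beside RPKM. Impdh2 had 1.35 reads per base of gene, Shmt2 1.23 and Nme2 0.996, as means of 24 libraries, where the other members had 0.102 to 0.855. Impdh2 averaged 2237 reads in EV and 2300 in WT at 8 h, beside mean library totals of 11.7 and 10.8 M, and Shmt2 averaged 2844 and 2972. At 4 h Impdh2 averaged 2161 and 2174 reads, beside totals of 11.1 and 10.1 M. These reads are not scaled to depth, and a cause of the RPKM differences of these 2 genes was not tested. Slc19a1, at 0.395 reads per base, averaged 1481 and 2495 reads at 8 h, and Cad, at 0.678, averaged 4834 and 6741. The reads of any member ran from 255 (Dctpp1) to 7146 (Cad) per library.

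Other genes around the pathway were called in both directions in WT. Of 21 tested folate, serine and methionine cycle genes 3 were higher and 3 lower at 8 h, with a median of 0.05. This is 14.3% in each direction, near or below the 15.2% and 20.1% of all tested genes. Fpgs, which traps folate in the cell by adding glutamates, went from 33.5 ± 1.2 to 51.7 ± 2.1 RPKM (0.62 ± 0.065, adjusted p = 3.97e-07) and was lower in HEA (-0.34 ± 0.065). Aldh1l2, the mitochondrial enzyme that burns formyl groups, was lower in WT (-0.51 ± 0.070) and higher in HEA (0.62 ± 0.070, adjusted p = 4.88e-07). In HEA 10 of the 21 were lower (47.6%) and 3 higher (14.3%) at 8 h, beside 27.5% and 20.2% of all tested genes.

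Of 32 salvage, interconversion and transport genes 7 were higher and 6 lower in WT at 8 h, 21.9% and 18.8%, also near the shares of all tested genes. Slc29a2, a nucleoside carrier, led with 1.34 ± 0.17, from 7.54 ± 0.43 to 19.9 ± 2.3 RPKM (adjusted p = 3.56e-06). Ak4, an adenylate kinase of mitochondria, was higher (0.59 ± 0.12), and its cytosolic relative Ak1 was lower (-0.58 ± 0.097). Uckl1, Ampd3 and Rrm2b were lower, at -0.72 ± 0.13, -0.93 ± 0.20 and -0.53 ± 0.19, Ampd3 being an AMP deaminase and Rrm2b the p53-linked reductase subunit. Of 15 breakdown and pool cleaning genes 5 were higher and 3 lower, 33.3% and 20% of a short list. Upp1, which splits uridine, fell from 2.75 ± 0.40 to 0.716 ± 0.45 RPKM (-1.47 ± 0.24, adjusted p = 8.65e-05), and Nudt16 was lower too (-0.98 ± 0.18). Entpd6, Nt5c3 and Entpd5, which strip phosphates from nucleotides, were higher, at 0.68 ± 0.090, 0.67 ± 0.10 and 0.57 ± 0.17. In HEA at 8 h Entpd6 (1.04) and Nt5c3 (0.55) were also called higher, and Ak1 (-0.47) and Upp1 (-0.79) also lower. Against their WT direction, Uckl1 was higher in HEA (0.42) and Ak4 lower (-0.37). The HEA calls of Upp1, Uckl1 and Ak4 were lost in 1, 1 and 3 of 17 alternatives. Of the 32 salvage, interconversion and transport genes 15 were lower (46.9%) and 5 higher (15.6%) in HEA at 8 h. Of the 15 breakdown and pool cleaning genes 4 were lower (26.7%) and 5 higher (33.3%) in HEA at 8 h. Of all tested genes 27.5% were lower and 20.2% higher. Among replication genes E2f2, Pole and Ccne1 were higher in WT, at 0.65 ± 0.17, 0.23 ± 0.061 and 0.43 ± 0.13. They were the 3 of 38 called higher, 7.89% beside 15.2% of all tested genes. In HEA at 8 h all 3 were lower, at -0.70, -0.22 and -1.06, a Pole call lost in 4 of 17 alternatives. The WT call of Rrm2b at 8 h (adjusted p = 0.0405) was lost in 10 of 17 alternatives. These were no filter (0.063), quantile normalisation (0.1), cyclic loess (0.0831), median centring (0.0525), only the compared groups (0.0586), leaving out the 3 farthest libraries (0.11), any EV library (0.0693 to 0.112) or WT replicate 3 (0.239) at 8 h. Without WT replicate 3, or without the 3 farthest libraries, its log2 fold change was -0.32. The WT call of Entpd5 (adjusted p = 0.0111) was lost without WT replicate 1 (0.07).

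**Figure D4:**
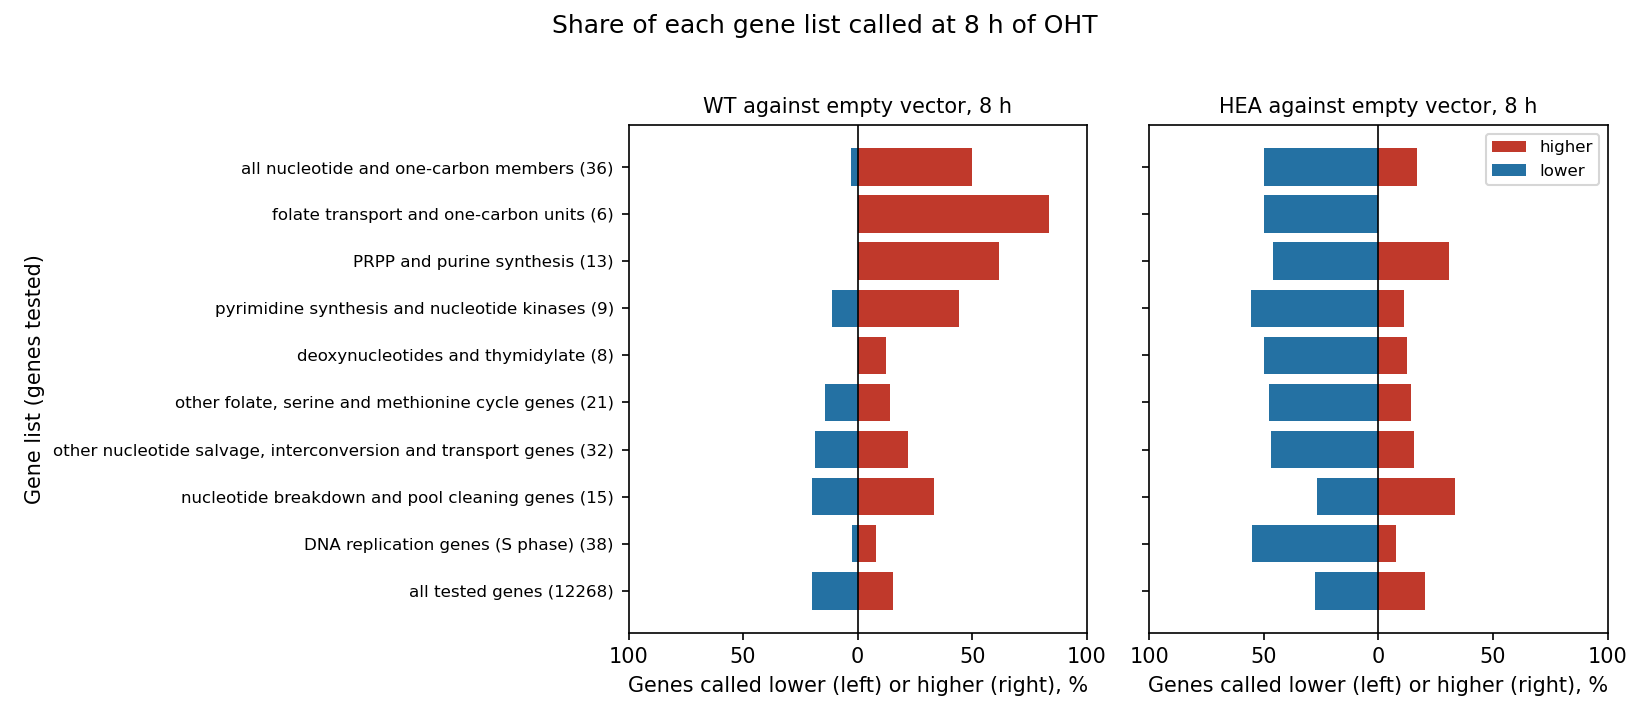
Share of each gene list called higher (right, red) or lower (left, blue) against EV at 8 h for WT and HEA, with the number of genes tested in brackets and all tested genes at the bottom. In WT 50% of the 36 members were called higher against 15.2% of all genes, and in HEA 50% were called lower against 27.5%. Lower shares in HEA were similar in the other folate (47.6%), other salvage (46.9%) and replication (55.3%) lists, and 26.7% in the breakdown list.

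In the authors' deposited table of comparisons with EV, 18 members were higher and 1 lower in WT at 8 h at an adjusted p below 0.05, and 11 were higher and 0 lower at 4 h. Over all genes with an adjusted p, the authors' deposited table has 2079 higher and 2270 lower of 13340 at 8 h. At 4 h the authors' deposited table has 978 and 1148 of 12475. For HEA the authors' deposited table has 6 higher and 18 lower at 8 h, and 3 and 14 at 4 h. For all genes in HEA the authors' deposited table has 3300 and 3409 of 13456 at 8 h, and 2123 and 2050 of 12634 at 4 h. For RA the authors' deposited table has 0 higher and 8 lower at 8 h and 0 and 2 at 4 h. For all genes in RA the authors' deposited table has 897 and 956 of 11722 at 8 h, and 262 and 369 of 11778 at 4 h. At 8 h the authors' deposited table gives Slc19a1 log2 fold changes of 0.86 in WT and -0.46 in HEA, and Impdh1 0.58 and 0.98.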

How the data were processed

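RNA was measured by RNA-seq in 24 libraries, 3 in each of 8 groups. The authors aligned reads with TopHat2 2.0.8 to mm9 and counted them with featureCounts 1.4.5-p1, per the submitters' processing notes, and the deposited expression values are RPKM. The authors' deposited table of comparisons gives log2 fold changes with standard errors, a test score, and p-values, made with DESeq2 per the submitters' processing notes. Whether counting used strand is not stated.

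RPKM was set on the scale log2(RPKM + 0.5), and genes with at least 1 RPKM in at least 3 libraries were kept (12268 genes). One limma fit (limma 3.58.1, R 4.3.3) with an intensity trend gave each group a mean and left 16 residual degrees of freedom. Benjamini-Hochberg adjustment ran over the tested genes of each comparison. Errors of log2 fold changes are standard errors, and a fold change on this scale understates that of low genes. The fit was also run on simulated data with a fixed replicate spread and few changed genes, unlike these data. That run says nothing on scaling or on the replicate spread here. No test used counts as deposited. Whole reads were recovered from RPKM steps, since gene lengths came out whole within 0.01 base for 17848 of 17870 genes, and served for depth and for voom. Replicate pairs differed by more than sampling noise (chi-square per degree of freedom 1.43 to 17.8). Alternatives were other pseudocounts, filters, scalings, fits and left-out libraries.

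The genes and lists were chosen with earlier results of these data known. Genes were named by rule: up to 5 per role by p in WT at 8 h, any called in HEA or RA or against its role's direction, and of each other list the 3 called with the smallest p in WT at 8 h and those called with a log2 change of at least 0.5. A gene that the rule names is not reported here. Promoters and gene overlaps come from RefSeq GRCm38.p6, which is not the build of the counts, so no coordinates were joined to the expression values. In RefSeq 14 of the 36 genes overlap another gene, such as Ppat with Paics and Cad with Atraid.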

Additional observations from a re-analysis of the deposited data

How the results depend on the processing

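Of the calls made with EV, 14 of 19 in WT at 8 h, 6 of 20 in WT at 4 h, 20 of 24 in HEA at 8 h and 16 of 21 in HEA at 4 h were made in all 17 alternatives, and between WT and HEA 20 of 24 at 8 h and 24 of 29 at 4 h. In RA 0 of 2 calls at 4 h and 0 of 1 at 8 h were. The count for WT at 4 h was 6 with only the compared groups fitted, and 12 to 21 with 1 library left out. For RA at 4 h it was 0 with only the compared groups, 0 without the 3 farthest libraries, and 0 to 2 with 1 library left out. For RA at 8 h it was 0 with no filter, quantile normalisation, cyclic loess, median centring, no trend or the replicate block, 9 with only the compared groups, 2 with voom, 5 without the 3 farthest libraries, and 0 to 0 with 1 library left out. The causes were not tested. Impdh2, not called between WT and HEA at 4 h, had -0.08 with cyclic loess (adjusted p = 0.0177), an alternative chosen after seeing the data, and this was the 1 reversal among the named values. In 0 of 11 comparisons did every same-numbered pair of replicates correlate above 0.1 (r from -0.36 to 0.41). The main fit used no pairing, but with 3 libraries per group this check cannot exclude it. A fit with the replicate block gave 20 calls for WT at 4 h, 19 at 8 h, and 21 and 24 for HEA. With 3 reads as the floor, a gene of 1000 bases could be detected down to 0.234 to 0.305 RPKM, by counting error alone.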
